A study of Mus musculus with 3 samples.

Results

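The BCL2 family genes Bcl2, Mcl1, Bcl2l1, Bcl2l11, Bcl2a1b, Bcl2a1d, Bax and Bak1 were followed in single NK cells from lung and blood. They were chosen by symbol and made up 8 of the 25906 genes counted. Live NK1.1+ NKp46+ cells had been sorted from lungs and blood of wild-type female mice 9 weeks of age, which were naive or had received PyMT mammary tumor cells intravenously either 6 h or 14 days before they were killed. Each time point was 1 droplet library with 3′ counts of unique molecular identifiers (UMIs), in which lung and blood cells were told apart by hashtag antibodies (B0304 for lung, B0306 for blood, an assignment that rests on the order of tissues and tags in the methods). This gave 6 groups of cells, naive lung, naive blood, 6 h lung, 6 h blood, 14-day lung and 14-day blood. The labels do not tie cells to single animals, and all groups were wild-type, with the naive mice as controls. Lungs were minced and digested with collagenase at 37 °C, a step that blood did not undergo.

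Proteins of the BCL2 family decide whether the outer membrane of the mitochondrion stays intact. The guardians BCL2, MCL1, BCL-XL (encoded by Bcl2l1) and A1 (Bcl2a1b and Bcl2a1d) hold back the pore-forming effectors BAX and BAK (Bak1), whereas the BH3-only protein BIM (Bcl2l11) binds the guardians and frees the effectors. In NK cells, interleukin 15 is known to sustain MCL1 and BCL2 and to hold down BIM, so that loss of the cytokine or of MCL1 costs the cells their survival.

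The 6 groups held between 2069 and 4680 cells and between 16936897 and 35922737 UMIs, with medians of 5909.5 to 7524 UMIs a cell. Sums of UMIs per gene over the cells of a group were scaled to a common total of all genes (CPM, UMIs of the gene per 1e+06 UMIs of the group). Intervals in brackets are exact 95% intervals and cover counting error only. There was 1 library per time point, so a difference between time points could not be told apart from a difference between libraries, and no test over time was possible. The libraries shared 16 (naive and 6 h), 11 (naive and 14 days) and 6 (6 h and 14 days) cell barcodes. All 8 NK markers on the list (among them Ncr1, Klrb1c and Eomes) were at or above 20 CPM in every group. The 8 myeloid markers summed to between 90.5 and 192 CPM, of which Itgax, which NK cells also carry, gave 72.1 to 97.5 CPM. Lyz2 gave 89.3 CPM in 14-day blood, 44.9 CPM in 6 h blood, 26.1 CPM in 6 h lung and less elsewhere. S100a8 and S100a9 gave most in naive blood, 9.41 and 13.3 CPM. Erythroid genes reached 89.0 CPM in 14-day lung. Genes induced by cell stress on dissociation, such as Fos and Junb, summed to 1633 to 1755 CPM in lung and to 352 to 410 CPM in blood. Junb alone gave 903.7 to 1075 CPM in lung. Egr1 was higher in blood than lung in the naive (48.1 against 23.8 CPM) and 6 h libraries (33.2 against 20.7 CPM). It was higher in lung at 14 days, and the other listed genes were higher in lung in each library.

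The promoters shown here are those of the members that were higher in lung than in blood in the test over the 3 libraries. Each window runs from 250 bases before to 50 bases after a start site in RefSeq on GRCm38.p6, which had a window for all 8 members and 32851 windows in all. Capitals mark matches, on either strand, to a forkhead motif (GTAAACA, found in 3.65% of all windows) or to an AP-1 motif (TGANTCA, found in 7.81%). The first window of Bcl2l11 lies at chr2:128125788-128126087 on the plus strand, that of Bcl2a1b at chr9:89199023-89199322 on the plus strand and that of Bcl2a1d at chr9:88731801-88732100 on the minus strand.
Bcl2l11: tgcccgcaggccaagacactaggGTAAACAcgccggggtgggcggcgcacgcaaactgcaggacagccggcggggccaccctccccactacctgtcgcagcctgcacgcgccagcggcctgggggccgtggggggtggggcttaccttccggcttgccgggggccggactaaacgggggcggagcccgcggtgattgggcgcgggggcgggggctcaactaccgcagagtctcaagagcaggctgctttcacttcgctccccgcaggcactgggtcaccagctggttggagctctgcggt
Bcl2a1b: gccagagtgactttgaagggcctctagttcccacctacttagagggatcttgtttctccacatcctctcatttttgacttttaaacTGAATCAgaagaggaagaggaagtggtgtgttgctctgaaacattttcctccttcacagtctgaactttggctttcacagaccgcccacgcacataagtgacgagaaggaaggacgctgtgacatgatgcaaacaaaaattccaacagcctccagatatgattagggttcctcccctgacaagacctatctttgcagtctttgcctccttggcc
Bcl2a1d: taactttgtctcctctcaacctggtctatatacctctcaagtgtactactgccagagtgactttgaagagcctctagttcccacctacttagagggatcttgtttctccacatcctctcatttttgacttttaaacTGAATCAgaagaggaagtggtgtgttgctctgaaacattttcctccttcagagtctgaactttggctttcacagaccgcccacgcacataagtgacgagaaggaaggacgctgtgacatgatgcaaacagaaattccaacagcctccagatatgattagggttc
The first Bcl2l11 window was the only one of a member with a forkhead match, which began 227 bases before the start site, and 71% of its bases were G or C. The second window of Bcl2l11, at chr2:128127325-128127624, held no forkhead match and is not shown. The A1 windows were of another kind, with 46.7% (Bcl2a1b) and 44.3% (Bcl2a1d) G or C. They were near copies of each other, with 247 of 256 aligned columns identical, 3 mismatches and 6 gap columns. Both held 1 AP-1 match, which began 164 bases before the start site in Bcl2a1b and 114 bases before it in Bcl2a1d. No member window held the STAT motif TTCNNNGAA, present in 8.30% of all windows. A match describes letters and not a bound site.

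Bcl2l11 was the member that separated lung from blood most. Its level was 440.2 CPM (431.7 to 448.7) in naive lung and 84.1 CPM (80.9 to 87.5) in naive blood. At 6 h it was 418.1 CPM in lung and 90.7 CPM in blood, and at 14 days 406.3 CPM (398.8 to 413.8) and 88.0 CPM (83.6 to 92.6). Every lung group was far above every blood group, and the blood groups overlapped within counting error. The lung groups differed little, and the intervals of 6 h and 14-day lung overlapped.

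The gene lies on chr2:128126038-128162547, plus strand (GRCm38, GENCODE M21). Lung over blood, its log2 ratio was 2.39, 2.21 and 2.21 for naive, 6 h and 14 days, with a mean of 2.27 ± 0.10 (SD, n = 3 libraries), or 4.81-fold. The median log2 ratio of all genes tested was between -0.09 and -0.10 in the same 3 comparisons. The difference was seen in the share of positive cells as well as in the sums. With each cell thinned to 3000 UMIs, at least 1 UMI of Bcl2l11 was found in 57.4%, 56.2% and 54.0% of lung cells (naive, 6 h and 14 days) and in 20.6%, 19.7% and 21.8% of blood cells. Without thinning the shares were 71.9%, 73.9% and 73.3% in lung and 34.9%, 38.6% and 40.8% in blood. Free RNA could give at most 5.56% to 9.16% of cells a UMI of the gene, below each of these shares. Cells with 3 or more UMIs after thinning made up 16.0% to 18.5% of lung cells and 1.16% to 1.65% of blood cells.

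**Figure D1:**
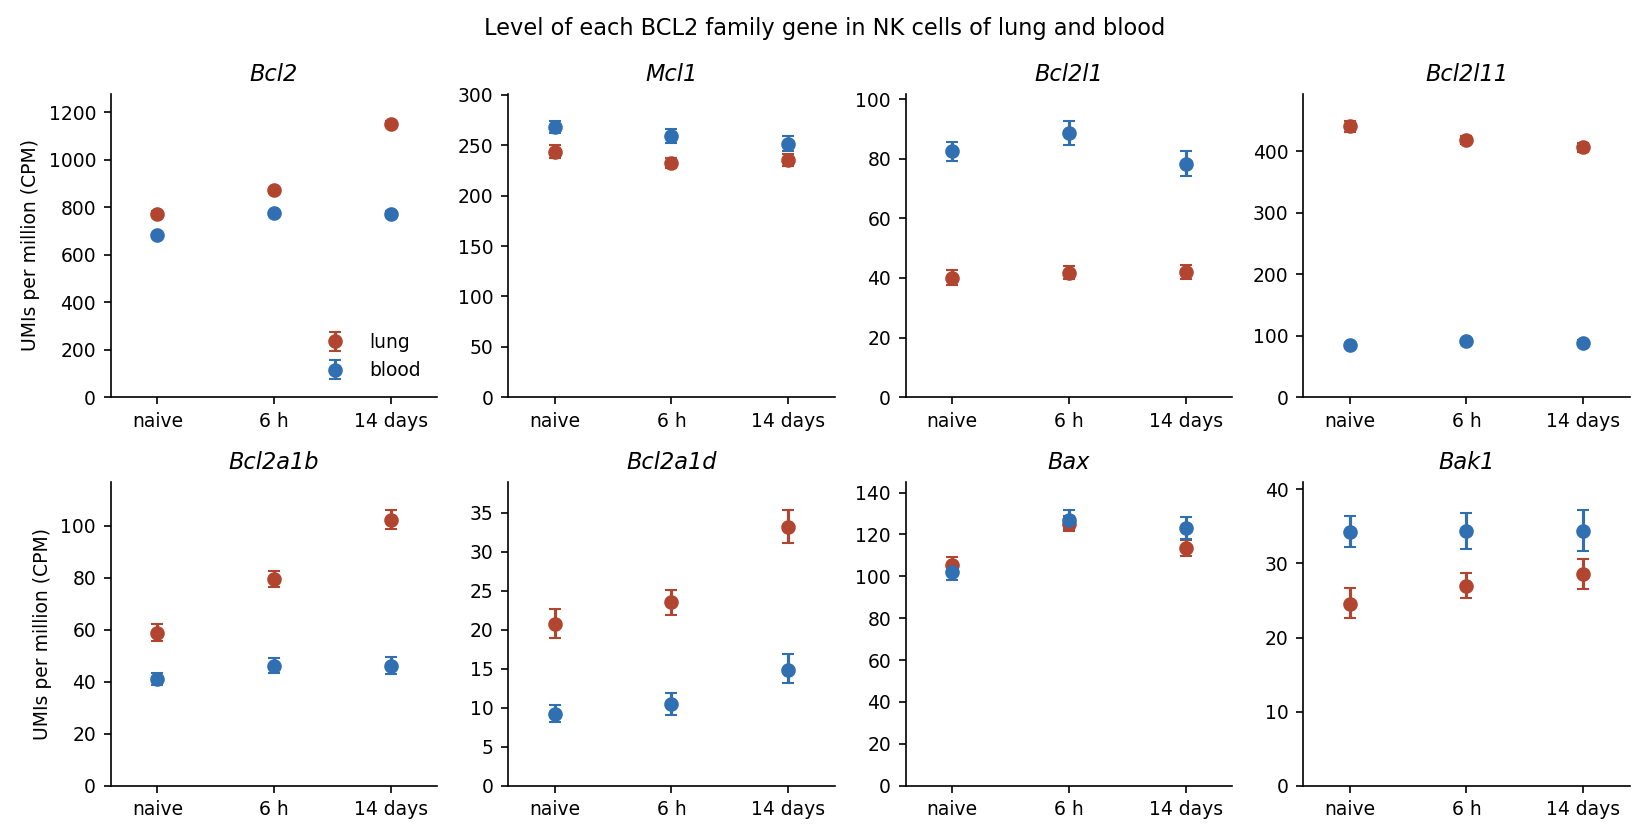
Levels of the 8 genes in each group, in CPM on linear axes that start at 0, with lung in red, blood in blue and exact 95% intervals for counting error as bars. Bcl2l11 lies at 406.3 to 440.2 CPM in lung and at 84.1 to 90.7 CPM in blood, whereas Mcl1 stays between 232.7 and 268.1 CPM.

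Bcl2l1, the gene of the guardian BCL-XL, went the other way. It was at 40.1 CPM (37.6 to 42.7) in naive lung against 82.4 CPM (79.2 to 85.7) in naive blood. The 6 h groups had 41.7 CPM in lung and 88.6 CPM in blood, and the 14-day groups 41.9 and 78.4 CPM. The lung groups overlapped one another and stood apart from the blood groups. Among the latter, naive blood overlapped with the others, but 6 h blood (84.7 to 92.6) lay above 14-day blood (74.2 to 82.7). Its log2 ratio was -1.04, -1.09 and -0.90, with a mean of -1.01 ± 0.096 (SD, n = 3 libraries). Bcl2l1 lies on chr2:152780668-152831728, minus strand, and overlaps no other annotated gene.

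The A1 genes were higher in lung, Bcl2a1d in equal measure at each time point and Bcl2a1b by more at 14 days. Bcl2a1b was at 58.8, 79.5 and 102.4 CPM in naive, 6 h and 14-day lung, each apart from the next, and at 41.0, 46.2 and 46.1 CPM in blood. Its log2 ratio of lung over blood was 0.52, 0.78 and 1.15 (mean 0.82 ± 0.32, SD, n = 3 libraries). Bcl2a1d had 20.7, 23.5 and 33.2 CPM in lung and 9.21, 10.4 and 14.9 CPM in blood, and its ratio was 1.17, 1.17 and 1.16. All blood values of Bcl2a1d were under 20 CPM, so its ratios rest on few counts, 276 in naive, 230 in 6 h and 252 in 14-day blood. Bcl2a1b (chr9:89199209-89207827, plus strand) and Bcl2a1d (chr9:88723285-88731914, minus strand) are duplicated A1 genes on opposite strands. Of the 90-base stretches, 36.1% of those of the Bcl2a1b transcript and 61.6% of those of Bcl2a1d occur in another A1 gene. How reads were divided between them is therefore uncertain. The remaining copies, Bcl2a1a and Bcl2a1c, had at most 16 and 11 counts in any group. Without cells with a stress gene (a UMI of Hspa1a, Hspa1b, Dnajb1, Atf3, Egr1, Nr4a1 or Dusp1) the ratio at 6 h was 0.56 for Bcl2a1b and 0.20 for Bcl2a1d.

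The other 4 members differed less between the tissues. Bcl2, on chr1:106538178-106714274, was at 771.6 CPM (760.4 to 782.9) in naive lung and 684.0 CPM (674.7 to 693.4) in naive blood, at 871.7 and 774.3 CPM at 6 h, and at 1150 CPM (1138 to 1163) and 772.4 CPM at 14 days. 14-day lung stood above 6 h lung, which stood above a set of 3 overlapping groups (6 h blood, 14-day blood and naive lung), and naive blood was lowest. Mcl1, on chr3:95658788-95663176, was the most even, at 243.7, 232.7 and 235.3 CPM in lung and 268.1, 258.9 and 251.6 CPM in blood, with overlap between naive lung and 14-day blood. The effector genes differed little. Bax (chr7:45461697-45466898) had 105.2, 125.0 and 113.5 CPM in lung and 102.0, 127.1 and 122.9 CPM in blood. Bak1 (chr17:27019810-27029009) had 24.6, 27.0 and 28.5 CPM in lung, all below the 34.3, 34.3 and 34.4 CPM of blood. The mean log2 ratio of lung over blood was 0.31 ± 0.23 for Bcl2, -0.13 ± 0.030 for Mcl1, -0.03 ± 0.079 for Bax and -0.37 ± 0.11 for Bak1 (SD, n = 3 libraries). Where other genes of the annotation overlap a member on the same strand (Gm29094 with Bcl2a1b, Gm45808 with Bax, Mir3473f and Gm37053 with Bcl2), how their shared reads were counted was not tested. Bcl2 had the largest variance over cells relative to its mean, 2.69 to 3.51 times after thinning, against 1.06 to 1.12 times for Mcl1. This ratio tends to rise with the level of a gene, and Bcl2 had the highest level. It therefore does not rank the members by how uneven they were between cells. Bcl2a1b had 1.72 to 2.34 times at far lower levels.

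A ratio of 1.5-fold either way, with 20 CPM or more in one of the groups, was met by 3 members in the naive library (Bcl2l11, Bcl2l1 and Bcl2a1d), where 9.52% of all genes tested met it. In the 6 h and 14-day libraries it was met by these and Bcl2a1b, 4 members each, against 8.61% and 9% of all genes. Bcl2a1d met the floor of 20 CPM through its lung level alone in each library. Relative to the median of all genes, Bcl2 at 14 days (0.68) and Bcl2a1b in naive mice (0.60) also met it, with 9.11% and 9.65% of all genes, and Bcl2 at 14 days met it in 7 of 13 alternative settings. Higher in lung without that adjustment were 6.46%, 6.12% and 5.58% of all genes in the 3 libraries. Fewer cells with a transcript and less transcript per cell contribute alike to these sums.

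**Figure D2:**
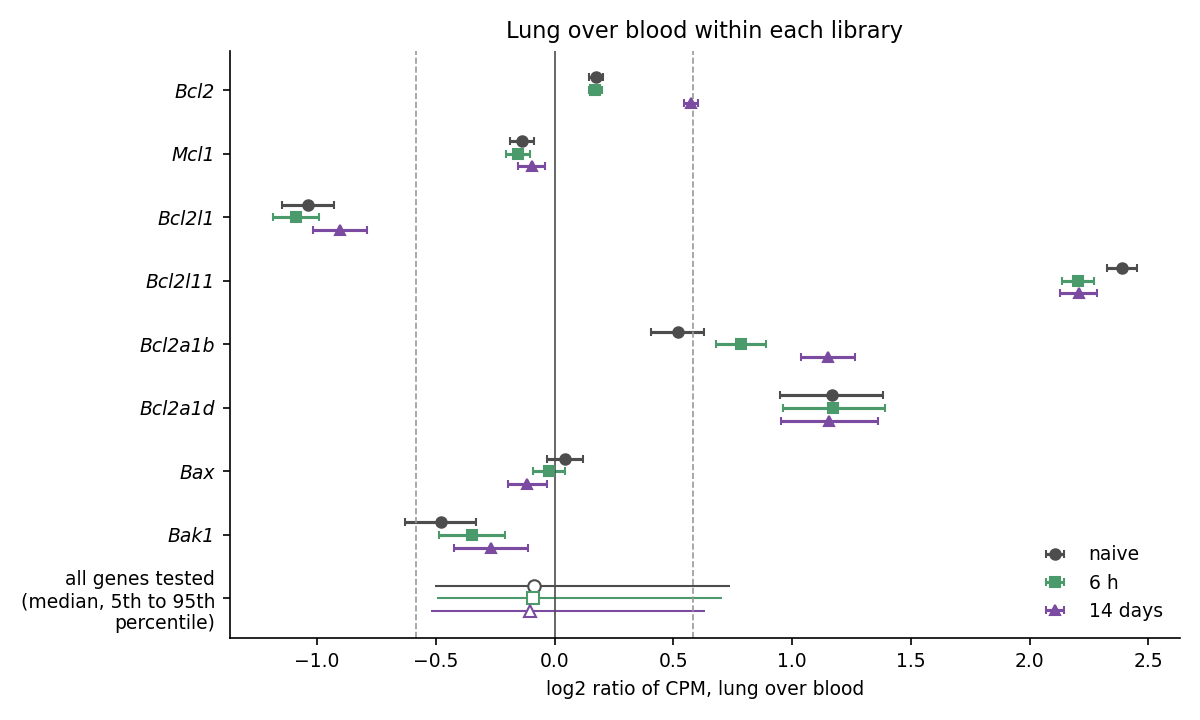
Log2 ratio of lung over blood for each gene in the naive, 6 h and 14-day libraries, with exact 95% intervals for counting error and dashed lines at 1.5-fold. The lowest line gives the median and the range from the 5th to the 95th percentile of all genes tested. Bcl2l11 lies between 2.21 and 2.39, Bcl2l1 between -1.09 and -0.90, and Mcl1 and Bax lie near 0.

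The 3 libraries were also used as blocks of 1 tissue comparison, in a test added after the data had been seen. edgeR's quasi-likelihood test with library as a block and TMM scaling called 1654 of 6844 genes (24.2%) at an adjusted p under 0.05, and 4 of the 8 members, 3 of them higher in lung (14.5% of all genes) and 1 lower (9.67%). Since the libraries were also the time points, the spread in this test holds any change of the tissue difference over time. Bcl2l11 was higher in lung by 2.35 on the log2 scale (adjusted p = 0.000234, higher in 3 of 3 libraries). Bcl2a1d and Bcl2a1b were higher by 1.25 (adjusted p = 0.00159) and 0.90 (adjusted p = 0.0165), and Bcl2l1 was lower, at -0.93 (adjusted p = 0.00223), each in 3 of 3 libraries. Genes entered the test with 20 CPM or more in any group, a floor that Bcl2a1d met in lung alone, the tissue where it was called higher. The other members did not pass, with 0.39 for Bcl2 (adjusted p = 0.0730), -0.28 for Bak1 (adjusted p = 0.0556), -0.05 for Mcl1 (adjusted p = 0.530) and 0.05 for Bax (adjusted p = 0.389). Without the 6 h library Bcl2a1b did not pass (adjusted p = 0.0693), and without the 14-day library 7 members passed along with 60.8% of all genes.

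The tissue difference of Bcl2l11 was present at each stage of NK cell maturation that the counts could gate. CD27 marks less mature and CD11b (Itgam) more mature NK cells, and KLRG1 and CX3CR1 mark the most mature. A cell counted as positive for a gene with at least 1 UMI of it, so these gates are ranges of UMIs and not cell types. In Cd27+ Itgam- cells the log2 ratio of Bcl2l11 was 1.89 to 2.37 over the 3 libraries. In Cd27+ Itgam+ cells it was 2.28 to 2.58, in Cd27- Itgam+ cells 2.16 to 2.35 and in Klrg1+ Cx3cr1+ cells 1.92 to 2.50. Bcl2l1 was lower in lung in all of these gates and libraries, with ratios from -1.26 to -0.64.

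In lung, Bcl2l11 also rose with Junb, the 1 stress gene by which cells were binned. Junb, an AP-1 gene, was at 1058, 1075 and 903.7 CPM in naive, 6 h and 14-day lung and at 210.6, 225.1 and 206.9 CPM in blood. In naive lung, Bcl2l11 was at 352.8 CPM in cells with no UMI of Junb, 369.3 CPM with 1 to 3, 448.4 CPM with 4 to 9 and 522.3 CPM with 10 or more. In 14-day lung the same 4 bins gave 231.8, 302.0, 410.5 and 542.3 CPM. In 6 h lung they gave 281.3, 345.2, 408.4 and 492.2 CPM. Blood had too few cells with 10 or more UMIs for that bin. Over the bins of 0, 1 to 3 and 4 to 9 UMIs it changed by fewer CPM than lung, from a lower level. In proportion, the rise from 0 to 4 to 9 UMIs was similar in lung and blood in the naive and 6 h libraries. It was larger in lung at 14 days. Naive blood had 80.7, 79.7 and 108.1 CPM, 6 h blood 79.6, 88.2 and 109.5 CPM, and 14-day blood 94.9, 80.6 and 98.9 CPM. Median UMIs a cell also rose over the bins, in naive lung from 5456 to 6706. Lung cells with no Junb UMI remained above blood cells with none, which had 80.7 CPM (naive), 79.6 CPM (6 h) and 94.9 CPM (14 days).

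**Figure D3:**
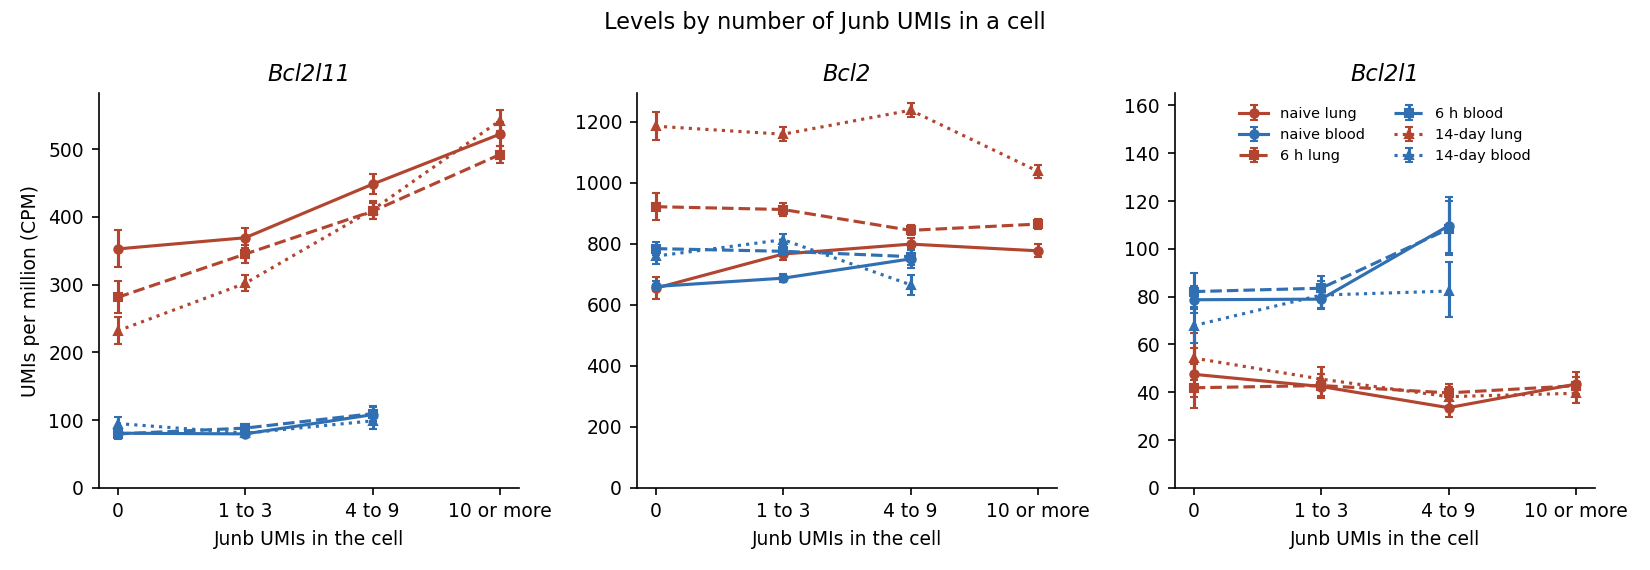
Levels of Bcl2l11, Bcl2 and Bcl2l1, in CPM, in cells grouped by their UMIs of Junb, for each of the 6 groups, with exact 95% intervals for counting error. In the panel of Bcl2l11 the lung groups rise over the bins, from 352.8 to 522.3 CPM in naive and from 231.8 to 542.3 CPM in 14-day lung, and each lies above its blood group in every bin that both have.

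Among cells with no UMI of Fos, Jun or Junb, of which there were 202, 188 and 172 in lung and 1262, 675 and 515 in blood, Bcl2l11 was at 338.3 CPM in lung against 79.5 CPM in blood in the naive library (2.09 on the log2 scale). It was at 280.7 against 81.2 CPM at 6 h (1.79) and at 214.3 against 92.6 CPM at 14 days (1.21). The ratio was thus smaller than in all cells at each time point, and most so at 14 days, but past 1.5-fold in all 3 libraries, as were 13.4%, 11.9% and 9.45% of all genes in these cells. Bcl2l1 had -0.83, -0.95 and -0.08 in these cells, and at 14 days its lung level was 64.5 CPM against 67.9 CPM in blood. Bcl2a1b had 0.21, 0.87 and 0.31. Bcl2a1d was no longer higher in lung at 2 of 3 time points (-0.03, 0.48 and -0.16), on only 10, 13 and 11 lung counts. Only lungs were digested, so digestion could not be told apart from tissue, also in these cells. Its part in the differences between lung and blood was not tested.

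Per group, the ratio of guardian to proapoptotic counts was lower in lung than in blood. Summed over the 5 guardian genes and divided by the sum over Bcl2l11, Bax and Bak1, it was 1.99, 2.19 and 2.85 in naive, 6 h and 14-day lung and 4.92, 4.67 and 4.74 in blood. The ratio of Bcl2 to Bcl2l11 counts was 1.75, 2.08 and 2.83 in lung and 8.13, 8.54 and 8.78 in blood. That of Mcl1 to Bcl2l11 was 0.554, 0.557 and 0.579 in lung and 3.19, 2.86 and 2.86 in blood. Each of these ratios has Bcl2l11 in its denominator. The guardian sum was higher in lung than in blood, at 1135, 1249 and 1563 CPM against 1085, 1178 and 1163 CPM (naive, 6 h and 14 days). The proapoptotic sum was 570.0, 570.1 and 548.3 CPM in lung against 220.5, 252.1 and 245.2 CPM in blood. These are ratios of 3′ UMI counts, and only their differences between groups are read here. In lung the first 2 ratios were higher at 14 days than in naive mice. The guardian sum was 1135 CPM in naive and 1563 CPM in 14-day lung, and the proapoptotic sum was 570.0 and 548.3 CPM. The ratio of Mcl1 to Bcl2l11 differed little between them.

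At 6 h after tumor cell injection no member met the 1.5-fold criterion against naive cells, in lung (0.422% of all genes) or in blood (0.368%). The largest ratio in lung was that of Bcl2a1b, 0.43 on the log2 scale, followed by Bax (0.25), Bcl2a1d (0.19) and Bcl2 (0.18). Without cells with a stress gene Bcl2a1d turned to -0.51 and Bcl2l1 from 0.06 to -0.16, Bcl2a1b was at 0.15 and Bcl2 at 0.36. In blood, Bax was at 0.32 and Bcl2 at 0.18. Bax was at 105.2 and 102.0 CPM in the naive groups and at 125.0 and 127.1 CPM at 6 h, so its naive groups lay below both 6 h groups.

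By 14 days the lung cells had more Bcl2 and more A1 transcripts than naive lung cells. Bcl2a1b had a log2 ratio of 0.80 (0.71 to 0.89) and Bcl2a1d one of 0.68 (0.52 to 0.84), and both met the criterion, as did 15.6% of all genes. Of all genes, 4.35% met it upward. With cells thinned to 3000 UMIs Bcl2a1b fell short of it (0.57). Bcl2a1d fell short without the 5% of cells with most UMIs (0.57) and with the mean of per-cell CPM (0.57), and met it in 11 of 13 alternative settings. Bcl2, at 0.58 (0.55 to 0.60), was just short of it. The median of all genes was -0.21 in this comparison, and relative to it the ratios were 1.01 for Bcl2a1b, 0.90 for Bcl2a1d and 0.79 for Bcl2, which then met the criterion with 11.8% of all genes, or 7.64% counted upward alone. Bak1 (0.21), Bax (0.11), Bcl2l1 (0.06), Mcl1 (-0.05) and Bcl2l11 (-0.12) were near the naive level, and for the last 2 the sign turned when set against that median. Some stress genes were also higher in 14-day than naive lung, with Jun at 217.0 against 106.4 CPM, Hspa1a at 22.1 against 1.15 CPM and Hspa1b at 41.9 against 3.20 CPM. Others were lower, with Junb at 903.7 against 1058 CPM, Nr4a1 at 121.6 against 200.5 CPM and Dusp1 at 147.0 against 196.2 CPM. The sum of all 10 stress genes listed was 1633 against 1737 CPM. Without cells with a stress gene, a filter that does not use Jun, the ratios of 14-day over naive lung were 0.81 for Bcl2a1b, 0.76 for Bcl2a1d and 0.76 for Bcl2, and that of Bak1 was -0.08. In 14-day blood no member met the criterion (3.47% of all genes). Bcl2a1d had the largest ratio, 0.69, but at 14.9 CPM was below the floor, and Bax and Bcl2 were at 0.27 and 0.18.

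**Figure D4:**
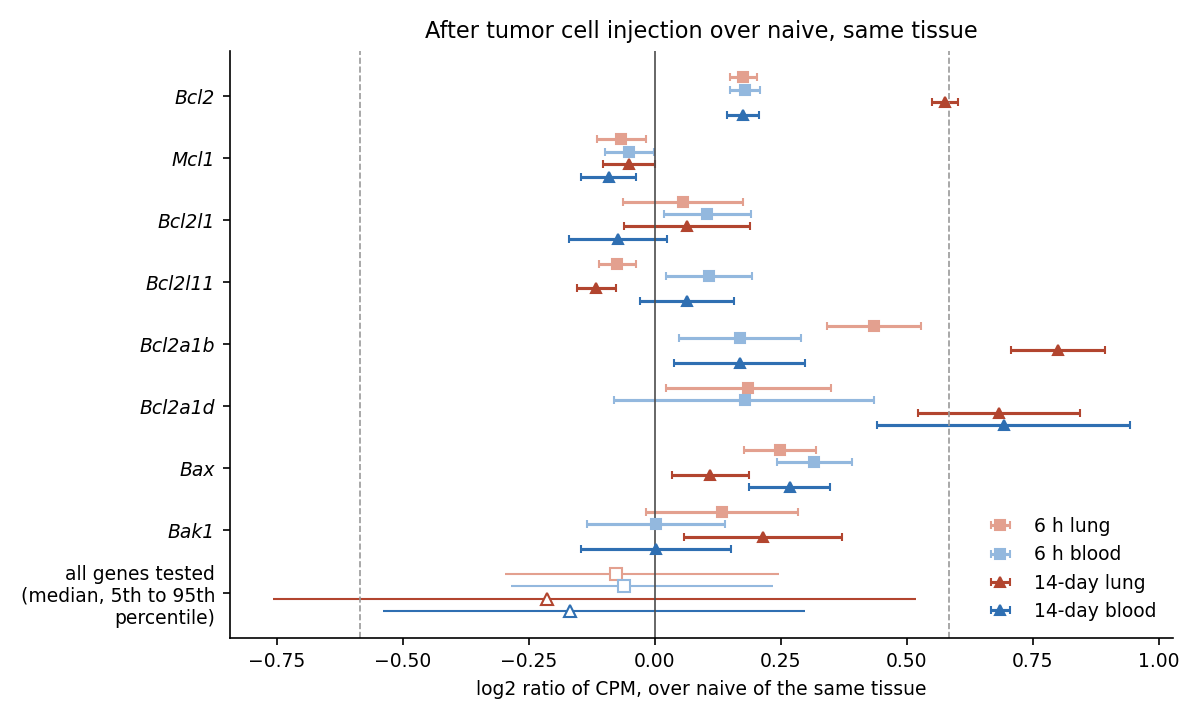
Log2 ratio over naive cells of the same tissue for each gene, at 6 h and at 14 days in lung and blood, with exact 95% intervals for counting error and dashed lines at 1.5-fold, above the median and the 5th to 95th percentile of all genes tested. Bcl2a1b (0.80) and Bcl2a1d (0.68) lie past the upper line in 14-day lung and Bcl2 (0.58) just inside it.

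The 14-day values of Bcl2 differed between gates. In Klrg1+ Cx3cr1+ lung cells (498 at 14 days, 709 naive) Bcl2 was at 792.1 CPM at 14 days and 724.6 CPM in naive mice, a log2 ratio of 0.13 (0.06 to 0.20). In the other lung cells (3077 and 2967) it was at 1214 against 784.0 CPM, a ratio of 0.63 (0.60 to 0.66). These intervals did not overlap, and the difference between gates was not tested over replicates. Bcl2a1b had 0.30 in the Klrg1+ Cx3cr1+ cells and 0.87 in the others. Bcl2l11 was at 266.9 against 417.7 CPM in the Klrg1+ Cx3cr1+ cells (-0.65) and at 430.9 against 446.1 CPM in the others (-0.05).

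The A1 ratios of 14-day over naive lung were larger in both gates with Cd27. In Cd27+ Itgam- lung cells (483 at 14 days, 240 naive), Bcl2a1b was at 149.6 CPM at 14 days against 47.5 CPM in naive mice, a log2 ratio of 1.65, and Bcl2a1d had one of 1.21. In Cd27+ Itgam+ cells (449 and 495) they had 1.06 and 1.45. The Bcl2a1d ratios of these 2 gates rest on few naive counts, 35 (interval 0.69 to 1.76) and 37 (0.90 to 2.02). In Cd27+ Itgam+ cells Bcl2a1d was at 10.0 CPM in naive lung and met the floor only through 14-day lung (27.4 CPM). In Cd27- Itgam+ cells they had 0.44 and 0.35. Of all genes, 30.5% and 16.3% were past 1.5-fold in the gates with Cd27 and fewer in the last, and the difference between gates was not tested. Bcl2 was similar in the 3 gates, at 0.59, 0.49 and 0.56.

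Cells positive for Itga1 and Pmepa1, genes seen in tissue-resident innate lymphoid cells, numbered 605 in 14-day lung and 60 in 6 h lung, and fewer than 50 in the other groups. In 14-day lung they held 1447 CPM of Bcl2 against 1079 CPM in the other cells (0.42) and 504.4 against 382.5 CPM of Bcl2l11 (0.40). Bcl2a1b had a ratio of 0.43 and Bcl2l1 one of -0.54. No member met the 1.5-fold criterion there, against 6.08% of all genes. In the 60 cells of 6 h lung, Bcl2a1b (0.90, 0.55 to 1.23) and Bax (-0.59, -1.05 to -0.16) met it, with 13.3% of all genes. The summed ILC1 markers ranged from 42.4 to 141 CPM over the groups, highest in 14-day lung and next in 14-day blood (102 CPM). In 14-day lung, 70.8 CPM of the sum came from Itga1, itself a gene of the gate. Cxcr6 and Cd200r1 were lower in 14-day lung (4.72 and 7.56 CPM) than in 14-day blood (15.3 and 11.3 CPM). The other listed markers were higher in 14-day lung than in 14-day blood. The part of cells with these markers in the higher Bcl2 of 14-day lung was not tested. Cells outside the gate had 1079 CPM of Bcl2 in 14-day lung, and all naive lung cells had 771.6 CPM. The gate needs a UMI of both genes, so cells outside it can include cells in which these were missed.

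Within every group, the A1 genes were highest in cells rich in the chemokine transcript Ccl4. Ccl4-high cells were the 10% of a group with the largest share of Ccl4, a product of stimulated NK cells. Bcl2a1b was at 148.9 CPM in them against 49.4 CPM in the other cells of naive lung, 199.1 against 67.8 CPM in 6 h lung and 209.1 against 91.4 CPM in 14-day lung. In blood it was at 172.4 against 25.9 CPM (naive), 207.8 against 29.0 CPM (6 h) and 193.1 against 29.7 CPM (14 days). The Ccl4-high cells thus had similar levels in lung and blood, whereas the other cells had more in lung. The Ccl4 cutoff was set within each group, so these gates need not hold the same level of Ccl4 in both tissues. The log2 ratio was 1.59, 1.55 and 1.19 in lung and 2.73, 2.84 and 2.70 in blood. Bcl2a1d had ratios of 1.11 to 3.21 over the 6 groups. Both A1 genes met 1.5-fold in 6 of 6 groups, where 3.46% (naive lung), 10.5% (naive blood), 3.6% (6 h lung), 11.2% (6 h blood), 4.38% (14-day lung) and 10.9% (14-day blood) of all genes did. Over all blood cells Bcl2a1d was under 20 CPM (9.21, 10.4 and 14.9). In blood it thus met the floor only through the Ccl4-high cells, a filter that favored these calls. The same held in naive lung, where Bcl2a1d was at 69.3 CPM in Ccl4-high and 15.6 CPM in the other cells. Bcl2l1 met 1.5-fold in 4 of 6 groups (0.26 to 0.95) and Bcl2l11 in 2 of 6, naive blood (0.96) and 6 h blood (1.36). Mcl1 lay between -0.18 and 0.10 and Bcl2 between -0.20 and 0.08.

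Other gates moved the members less but often the same way in all groups. In Cd27+ Itgam- against Cd27- Itgam+ cells, Mcl1 was lower in 6 of 6 groups (-0.31 to -0.21), Bcl2l1 lower in 6 of 6 (-0.83 to -0.23) and Bcl2l11 higher in 6 of 6 (0.16 to 0.50). In Klrg1+ Cx3cr1+ cells against all others, Bcl2 was lower in 6 of 6 (-0.62 to -0.01), Bcl2l11 lower in 6 of 6 (-0.69 to -0.09) and Mcl1 higher in 6 of 6 (0.06 to 0.16). Cells with cycling genes had less Bcl2 (-0.68 to -0.17), Bcl2l1 (-0.55 to -0.11) and Mcl1 (-0.25 to -0.02) in 6 of 6 groups. The share of all genes past 1.5-fold was 5.8% to 13.1% for the first and 1.6% to 8.24% for the second gate. For the cycling gate it was 5.26% to 10.5%. Groups of 1 library share its preparation, so these 6 groups are not 6 independent samples.

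**Figure D5:**
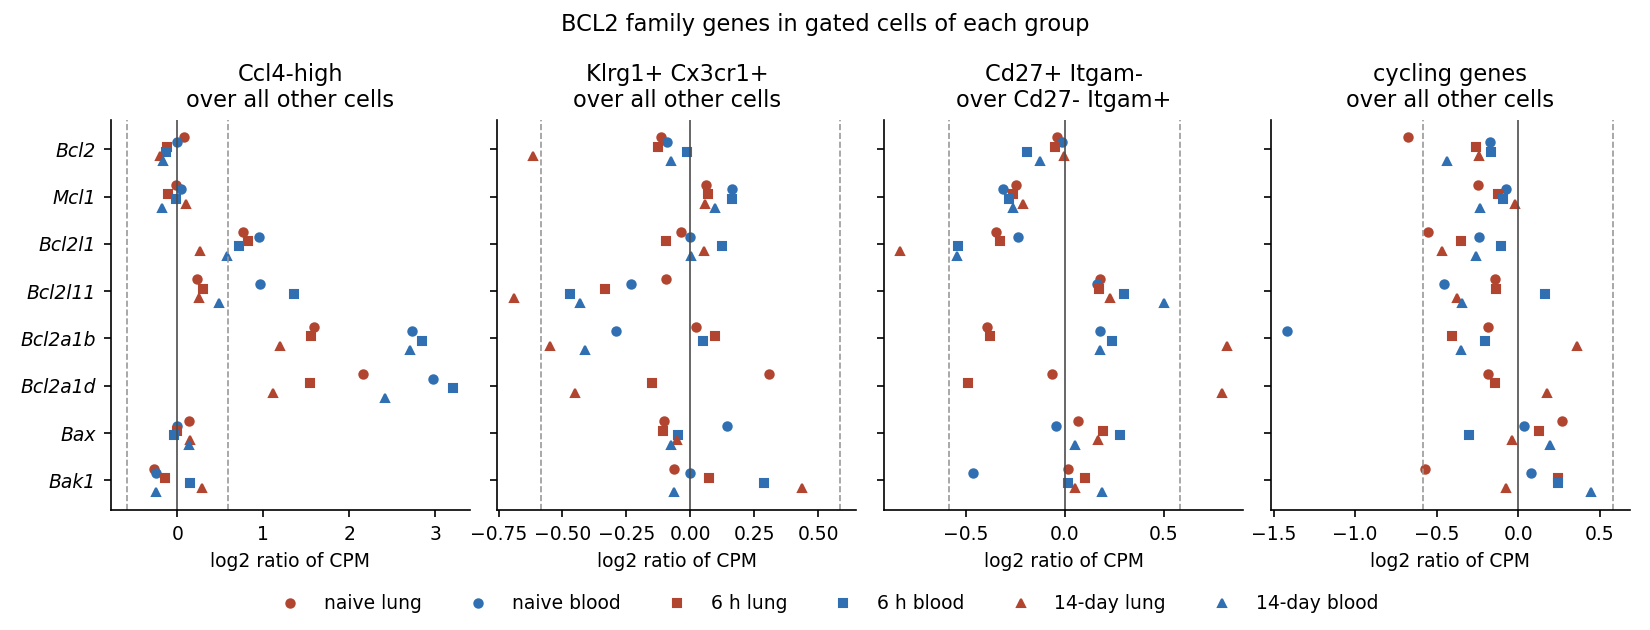
Log2 ratio of each gene in gated cells over the cells named in each title, for the 6 groups, with dashed lines at 1.5-fold. Bcl2a1b and Bcl2a1d lie past the upper line in all Ccl4-high gates, and Mcl1 and Bcl2 stay inside it in these gates. Values of genes under 20 CPM in both sets of cells are not drawn.

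Genes outside the family were ranked by their likeness to each member over the 6 groups (Pearson's r of log2 CPM, 2209 genes searched, a description over groups that share libraries). Pde4b, the gene of a cAMP phosphodiesterase, was most like Bcl2l11 (r = 0.999), with 203.0, 198.6 and 197.8 CPM in lung and 91.5, 90.9 and 88.6 CPM in blood. Cables1 and Junb followed, both with r = 0.998. Prag1 was most like Bcl2l1 (r = 0.996), Plac8 and the interferon-stimulated gene Isg15 most like Bcl2 (both r = 0.989), and the chemokine gene Cxcl10 most like Bcl2a1b (r = 0.980). Bax ran with Nme2 (r = 0.965) and Nme1, nucleoside diphosphate kinases, Mcl1 with Nf2 (r = 0.996), Bak1 with Rinl (r = 0.990) and Bcl2a1d with Dpm1 (r = 0.975).

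Of 18 other BCL2 family genes, 4 or 5 were at 20 CPM or more in a given comparison, and none of those met 1.5-fold in any of the 7 comparisons. Beside the list counts that follow stand the shares of all genes higher in lung than blood (6.46%, 6.12% and 5.58% for naive, 6 h and 14 days) and lower (3.06%, 2.49% and 3.42%). For 14-day over naive lung the shares were 4.35% higher and 11.3% lower. Of 14 apoptosome and caspase genes tested between lung and blood, 2 were higher in lung in each library, Birc2 (0.82, 0.84 and 0.75) and Birc3 (0.81, 0.91 and 0.81), which encode inhibitors of apoptosis. In 14-day over naive lung 0 of 13 were higher and 1 lower, Apaf1 (-0.62), the scaffold of the apoptosome.

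Of 12 death receptor genes, 8 were tested in the naive and 6 h libraries and 9 at 14 days. In each library 2 were higher in lung, Tnfrsf1b, a TNF receptor (1.15, 0.99 and 1.03), with Fasl in the naive (0.88) and 6 h (0.85) libraries and Tnfsf10, which encodes TRAIL, at 14 days (1.34). Cflar, an inhibitor of caspase 8, was lower in lung in naive mice (-0.74) and at 6 h (-0.69). In 14-day over naive lung 1 of 9 was higher, Tnfsf10 (2.60), and 2 were lower, Fasl (-0.75) and Ripk1 (-0.68).

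Of 15 genes of interleukin 15 and STAT5 signaling, 11, 11 and 12 were tested between lung and blood, of which 2, 4 and 3 were higher in lung and 0 lower. The feedback inhibitor Socs3 (2.65, 2.34 and 1.99) and Stat3 (1.86, 1.90 and 1.30) were among them in each library. In 14-day over naive lung, 3 of 12 were higher, Cish (2.02), Pim2 (1.36) and Socs1 (0.75), of which Cish and Pim2 are STAT5 targets, and 3 were lower, Stat3 (-0.78), Stat5b (-0.76) and Stat5a (-0.70). Pim2 was also higher than in naive cells in 6 h lung (0.86), the 1 gene of 11 there, against 0.359% of all genes. In blood, Pim2 and Socs1 were the 2 genes of 10 higher both at 6 h (0.88 and 0.71) and at 14 days (1.03 and 0.75). Of all genes, 0.214% were higher in 6 h and 0.718% in 14-day blood.

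All 18 listed transcription factors and enzymes that act on the family were tested. Between lung and blood, 4, 4 and 3 of them were higher and 0 lower, led by Nfil3 (1.46, 1.27 and 0.86), Rel (0.90, 1.03 and 0.93) and Relb (0.83, 0.78 and 1.09). In 14-day over naive lung 0 were higher and 4 lower, among them the forkhead genes Foxo1 (-0.95) and Foxo3 (-0.85) and Nfil3 (-0.63). The median of these 18 ratios was -0.38, against -0.21 for all genes.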

How the data were processed

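The authors deposited raw tables of UMI counts, for genes and hashtags, over all barcodes, from Cell Ranger (7.0.1 in the labels, 7.1.0 in the file headers) on GRCm38.p6 with the GENCODE release named in the labels, M23, with no further normalization. Gene positions given here are from GENCODE M21 on the same build. Barcodes with 800 to 5000 genes, at most 6% mitochondrial counts and at least 90% of tag counts from 1 hashtag were kept. Between 2.08% and 4.08% of barcodes could not be assigned to a tissue and were left out, and no doublet caller was run within a tissue. Counts were summed per library and tissue with Python 3.11.15, NumPy 2.4.6 and SciPy 1.17.1. Intervals are exact Poisson, conditional or Clopper-Pearson. The limit on free RNA comes from barcodes with at most 100 counts. The lung and blood test, added after seeing the data, used edgeR 4.0.16 in R 4.3.3 with Benjamini-Hochberg adjustment, and DESeq2 1.42.0 as an alternative. On simulated data of 6714 genes, it recovered 100 of 100 genes changed by 1 and 100 of 100 changed by 2 on the log2 scale, with 12 false among 212 calls. The simulated tissue effect was the same in every library. These counts therefore do not cover a tissue difference that changes between libraries, as the real one can. The members and lists were chosen with earlier results of these data known. All members were named, besides at most 3 genes of a list past 1.5-fold with the largest change, and at most 3 genes most like each member. Alternatives changed the cell filter, tissue assignment, scaling, floor, depth, free RNA, and cells with stress or myeloid genes. A result for 1 listed gene is not reported here.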

Additional observations from a re-analysis of the deposited data

Results flagged for a closer look

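Bcl2l11 moved in opposite directions at 6 h against naive cells in lung and in blood, with log2 ratios of -0.0741 in lung and 0.108 in blood. The difference was not tested, since each time point was 1 library. Set against the median over all genes they were 0.00 in lung and 0.17 in blood, so the lung sign depended on the scaling.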

How the results depend on the processing

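Single member values were recomputed under other cell filters, tissue assignments, scalings and depths, of which 1712 stayed within the counting interval of the first value and 317 moved beyond it. Of 56 ratios between groups, 16 turned their sign in at least 1 of 13 such settings, all 16 of at most 0.21 in size and none past 1.5-fold. Among all values past 1.5-fold, 2 turned. Bcl2a1d between Cd27+ Itgam+ and Cd27- Itgam+ cells of naive lung became 0.0422 and Bcl2l1 in Ccl4-high cells of naive lung -0.62 without cells with a stress gene. In cells without Fos, Jun or Junb, an alternative added later, Bcl2a1d of lung over blood turned to -0.0308 (naive) and -0.16 (14 days). The causes were not tested. Members past 1.5-fold in 14-day over naive lung numbered 1 with thinned cells and 1 without the highest 5% of UMI counts, in 14-day over naive blood 1 with no floor, and in 6 h lung over blood 2 without stress-gene cells. Without those cells Bcl2l11 remained higher in lung (2.18, 1.96 and 1.72), whereas Bcl2l1 fell short of 1.5-fold at 14 days (-0.53). This filter kept 615 of 3676, 631 of 4680 and 777 of 3575 lung cells (naive, 6 h and 14 days). Of blood cells it kept 2600 of 4367, 1445 of 2746 and 1202 of 2069.

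For the edgeR test, leaving out the library block gave 4 members and 780 genes (11.4%), so the block changed no member's call. Plain totals gave 5 members, adding Bak1 (adjusted p = 0.0177), with 788 genes higher and 1689 lower in place of 992 and 662. DESeq2 called 5 members and 1402 genes (20.5%), and no floor 5 members and 2333 genes (12%), both adding Bcl2 (adjusted p = 0.00678 and 0.0400). Leaving out 1 library gave 3 to 7 members, with 251 (naive), 291 (6 h) and 4093 (14 days) genes called. Over the 7 alternatives the adjusted p ranged from 5.18e-161 to 0.00813 for Bcl2l11, 1.47e-25 to 0.0304 for Bcl2l1, 1.03e-17 to 0.0265 for Bcl2a1d and 4.14e-19 to 0.0693 for Bcl2a1b. Depth limited Bcl2a1d most, at 9.21 CPM in naive blood.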
